A study of Mus musculus with 16 samples.

Results

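The CCN genes Ccn1, Ccn2 and Ccn3 encode secreted matricellular proteins, which sit in the extracellular matrix and signal to cells without being structural parts of it. They were followed here in brain endothelial cells (bECs) of mice with or without endothelial YAP and TAZ, after sham surgery or stroke. The members were 3 genes, found by symbol among the 37003 genes of the count table. Ccn3 was chosen by its decrease after stroke in YAP/TAZ-deficient bECs in these same libraries. Every comparison of Ccn3 with YT-iKO among the groups compared is therefore given as a description without a test. Ccn1 and Ccn2 stand beside it as members of its family.

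RNA of sorted bECs was sequenced in 16 libraries, 4 in each of 4 groups. YT-iKO mice (Pdgfb-iCreERT2+/-:Yapfl/fl:Wwtr1fl/fl) carried a tamoxifen-inducible Cre under the endothelial Pdgfb promoter, an eGFP reporter on the same transgene, and floxed Yap and Wwtr1, the gene of TAZ. CTRL mice (Pdgfb-iCreERT2+/+:Yapfl/fl:Wwtr1fl/fl) were littermates that carried the floxed alleles and, by the study's methods, lacked the Cre transgene. Loss of YAP/TAZ and carriage of Cre and eGFP therefore cannot be told apart in any comparison of genotype. Both genotypes were adult mice of both sexes, of an age not given in the sources used here, and both received tamoxifen in the days before surgery. Stroke was middle cerebral artery occlusion (MCAo) for 30 minutes with reperfusion, and tissue was taken 72 hours after MCAo or sham surgery. For MCAo mice the methods name both the ischemic territory and the matching area of the other hemisphere as dissected; whether both entered 1 library is not given in the sources used here. Living cells positive for the endothelial protein CD31 and negative for the leukocyte protein CD45 were sorted, and each library is a pool of mice.

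The libraries held 11418262 to 23074547 counts assigned to genes, with a median of 16441012. Endothelial markers summed to between 9011 and 19250 CPM (counts scaled to library size, normalized by TMM) in every library, against 156 to 732 CPM for pericyte markers, 30.3 to 84.4 CPM for smooth muscle and 16.9 to 34.8 CPM for fibroblast markers. Yap1 was lower in YT-iKO, with log2 differences of -1.18 after sham (SE 0.22, edgeR adjusted p = 0.0371) and -1.17 after MCAo (SE 0.22, edgeR adjusted p = 0.0478). Wwtr1 was lower too, at -1.88 in both settings (SE 0.28, edgeR adjusted p = 0.00381 after sham and 0.00356 after MCAo). An even background of reads over genes that bECs do not express ranged from 0.0413 to 0.421 CPM per kb of exon, a 10.2-fold range between libraries.

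CCN proteins are built from modules that resemble insulin-like growth factor binding protein, von Willebrand factor type C and thrombospondin domains, with a cysteine knot at the C-terminus in most members. They bind integrins and heparan sulfate proteoglycans and so link the matrix to adhesion, migration and vessel growth. Ccn1 (formerly Cyr61) and Ccn2 (formerly Ctgf) are classic target genes of YAP/TAZ, which act through TEAD transcription factors, and Ccn1 is also an immediate early gene, transcribed within minutes of a stimulus. Ccn3 (formerly Nov) can bind Notch1, and in several tissues its action opposes that of Ccn2.

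On GRCm38 with GENCODE M21, Ccn1 spans chr3:145646976-145649981 on the minus strand, Ccn2 chr10:24595442-24598683 on the plus strand and Ccn3 chr15:54745702-54754039 on the plus strand. Of Ccn2's exons, 665 bases also lie in exons of Gm15270 on the opposite strand, and the libraries were made with a kit that does not mark strand. Only Ccn1 of the 3 genes had an entry in the RefSeq promoter table. Its promoter is shown because the results below turn on the level of Ccn1 with and without YAP/TAZ and beside that of immediate early genes. The window (RefSeq, GRCm38.p6, chr3:145649936-145650235, minus strand) runs from 250 bases before to 50 bases after the start site, and the capitals mark the single match to the TEAD motif GGAATG on either strand, read here as its reverse complement.
Ccn1 promoter: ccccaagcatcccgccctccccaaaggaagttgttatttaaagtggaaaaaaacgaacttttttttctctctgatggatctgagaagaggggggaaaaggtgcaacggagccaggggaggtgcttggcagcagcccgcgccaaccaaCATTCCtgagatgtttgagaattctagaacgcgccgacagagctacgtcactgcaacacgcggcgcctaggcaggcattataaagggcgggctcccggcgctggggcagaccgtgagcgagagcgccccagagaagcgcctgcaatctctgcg
The match began at -103 relative to the start site, and GGAATG occurred on either strand in 14.7% of 32851 promoters of this length. A TATAAA match on the plus strand began at -25 and did not overlap it, a motif held by 13.6% of these promoters. TGANTCA, the motif of AP-1, and the CArG box of serum response factor, searched on both strands, were not found in this window; they were present in 7.81% and 1.63% of promoters.

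In CTRL bECs after sham surgery, Ccn1 stood at 16.3 ± 7.67 CPM per kb of exon (SD, n = 4), Ccn2 at 9.21 ± 2.28 and Ccn3 at 1.87 ± 1.09, which placed them at percentiles 92.3, 85.3 and 61.4 of the genes measured. The order by mean level per length was thus Ccn1, Ccn2, Ccn3, although the lowest Ccn1 library lay below the highest Ccn2 library. After sham surgery in YT-iKO, Ccn1 was at 6.26 ± 7.35, Ccn3 at 4.21 ± 1.76 and Ccn2 at 3.30 ± 1.53 CPM per kb (SD, n = 4), so that Ccn3 stood above Ccn2 in mean level with overlapping libraries. Ccn4, Ccn5 and Ccn6, the rest of the family, had mean levels of 0.480 to 1.04 CPM per kb in every group. Of their counts in single libraries, the even background accounted for an expected 8.38% to 70.9% for Ccn4, 3.04% to 56.8% for Ccn5 and 22.8% to 72.3% for Ccn6. By the same estimate it made up 0.348% to 18.5% of Ccn1 counts, 0.912% to 30.4% of Ccn2 counts and 3.495% to 46.6% of Ccn3 counts.

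**Figure D1:**
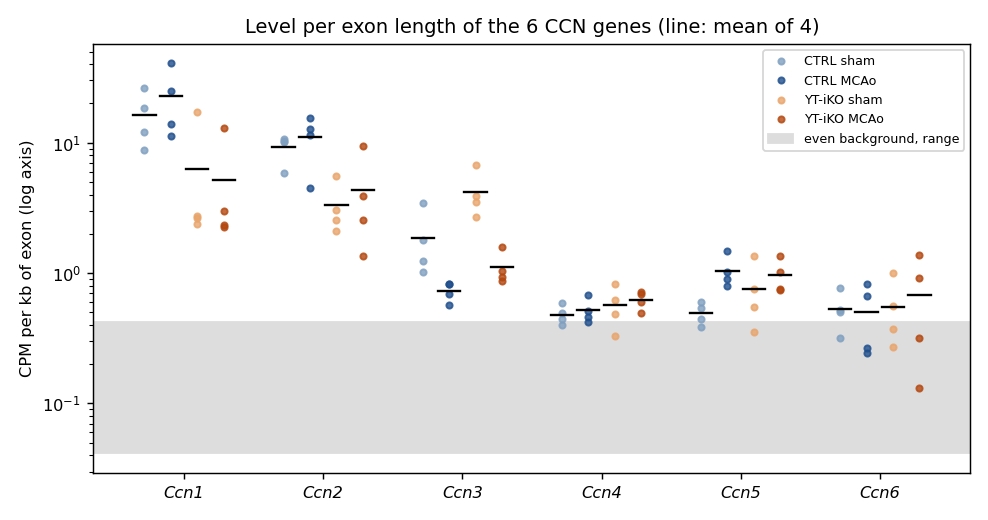
Level of each CCN gene in CPM per kb of exon (log axis) in 16 libraries, coloured by group, with black lines at the mean of 4 libraries and a grey band from the lowest to the highest even background (0.0413 to 0.421 CPM per kb). Ccn1 and Ccn2 stand above the band in every library, whereas points of Ccn4, Ccn5 and Ccn6 reach into it.

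Ccn1, an integrin ligand that promotes endothelial adhesion and vessel growth, was lower on average in YT-iKO than in CTRL in both settings. After sham, Ccn1 measured 52.9, 36.9, 24.5 and 17.6 CPM in CTRL replicates 1 to 4 and 34.9, 4.83, 5.31 and 5.53 CPM in YT-iKO replicates 1 to 4. Replicate 1 of YT-iKO lay within the CTRL range, and the other YT-iKO libraries lay below every CTRL library. The means were 33.0 ± 15.5 CPM in CTRL and 12.6 ± 14.8 CPM in YT-iKO (SD, n = 4), and the fitted log2 difference was -1.37 (SE 0.62, 95% interval -2.66 to -0.09, edgeR unadjusted p = 0.0372, adjusted p = 0.990). On the log2(CPM + 1) scale, an exact permutation test (two-sided) gave p = 0.0857. After MCAo, Ccn1 measured 81.8, 22.8, 28.3 and 50.6 CPM in CTRL and 26.3, 4.51, 6.02 and 4.74 CPM in YT-iKO. Again only replicate 1 of YT-iKO reached the CTRL range. The log2 difference was -2.13 (SE 0.63, 95% interval -3.44 to -0.82, edgeR unadjusted p = 0.00282, adjusted p = 0.984), a 4.37-fold lower level, with an exact two-sided permutation p of 0.0571.

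Ccn2, whose product promotes matrix deposition and binds growth factors of the TGF-beta family, was likewise lower on average without YAP/TAZ. After sham it measured 16.6, 30.4, 29.0 and 29.4 CPM in CTRL and 15.8, 7.25, 8.68 and 5.995 CPM in YT-iKO. These groups did not overlap, with replicate 1 of CTRL just above replicate 1 of YT-iKO. The log2 difference was -1.48 (SE 0.44, 95% interval -2.40 to -0.55, edgeR unadjusted p = 0.00313, adjusted p = 0.990), or 2.78-fold lower, and the exact two-sided permutation p was 0.0286, the smallest that 4 against 4 libraries allow. After MCAo, Ccn2 measured 44.2, 36.2, 12.8 and 32.5 CPM in CTRL and 27.0, 3.89, 7.25 and 11.2 CPM in YT-iKO. Here the groups overlapped through replicate 3 of CTRL and replicate 1 of YT-iKO. The log2 difference was -1.34 (SE 0.44, 95% interval -2.26 to -0.43, edgeR unadjusted p = 0.00590, adjusted p = 1), with an exact two-sided permutation p of 0.0571.

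Ccn3 had higher mean levels in YT-iKO, in libraries that include those by which it was chosen. After sham it measured 5.11, 9.86, 3.58 and 2.92 CPM in CTRL and 11.3, 10, 7.71 and 19.3 CPM in YT-iKO. The groups overlapped through CTRL replicate 2 and YT-iKO replicate 3 alone. The log2 difference was 1.16 (SE 0.35), or 2.24-fold higher. After MCAo it measured 2.35, 2.34, 1.97 and 1.64 CPM in CTRL and 2.51, 4.51, 2.98 and 2.68 CPM in YT-iKO. Every YT-iKO library was above every CTRL library here, although the lowest YT-iKO library exceeded the highest CTRL library by little. Non-overlap upward for genotype after MCAo was seen for 0.566% of genes. The log2 difference was 0.61 (SE 0.37). Both values share their YT-iKO libraries with the comparison that singled out Ccn3, so no test is given and nothing is read from them.

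**Figure D2:**
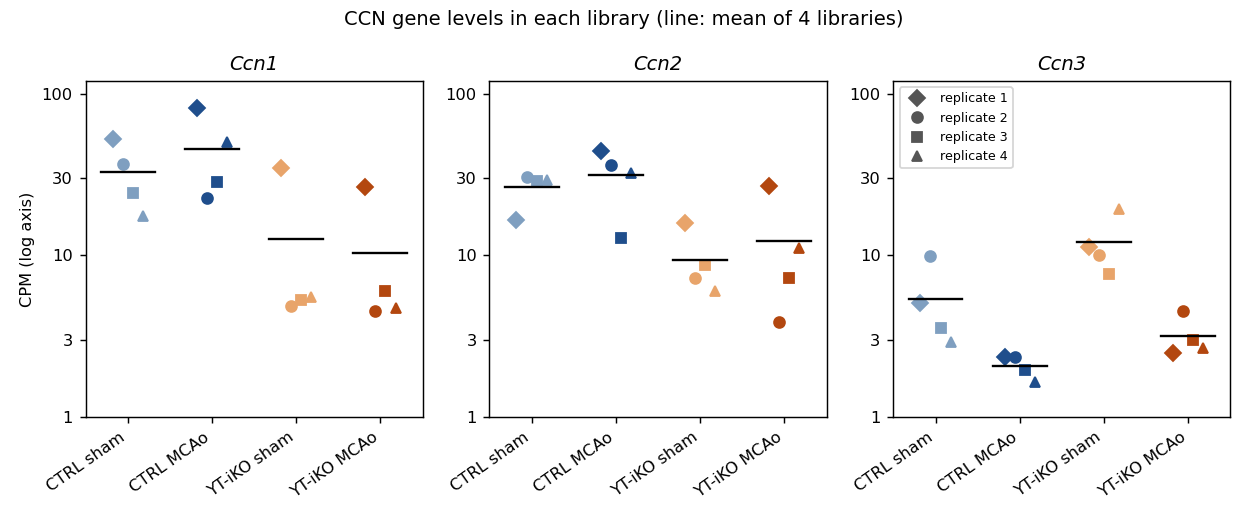
CPM (log axis) of Ccn1, Ccn2 and Ccn3 in each of the 16 libraries by group, with a symbol for each replicate number and a line at the mean of 4 libraries. Replicate 1 (diamonds) is the highest Ccn1 library in all 4 groups, and Ccn3 is highest in YT-iKO sham at 12.1 CPM on average.

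In the edgeR model of 4 groups, with no term for replicate number, 0 of Ccn1 and Ccn2 passed an adjusted p under 0.1. That was for genotype after sham and after MCAo, where 0.0965% and 0.0708% of the 31085 genes tested passed. The alternative with a replicate block, which called Ccn1 in both settings, is given with the other alternatives below. DESeq2 also called 0 of 2 in both settings, against 0.547% and 0.534% of the genes it tested. At an unadjusted p under 0.05, Ccn1 and Ccn2 both passed in each setting, against 2.16% of all genes after sham and 1.49% after MCAo; Ccn3 is left out of these counts because it was chosen on some of these libraries. Non-overlap downward, as for Ccn2 after sham, was seen for 2.22% of genes. In bulk RNA, fewer cells that express a gene and less of its RNA per cell cannot be told apart.

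By mean level the groups ranked CTRL MCAo, CTRL sham, YT-iKO sham, YT-iKO MCAo for Ccn1 and CTRL MCAo, CTRL sham, YT-iKO MCAo, YT-iKO sham for Ccn2, and each group overlapped with its neighbours in these orders.

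Leaving out YT-iKO MCAo replicate 1 moved the genotype difference after MCAo to -3.21 for Ccn1 (edgeR adjusted p = 0.0778) and to -2.17 for Ccn2 (edgeR adjusted p = 0.0365), so that both then passed. Leaving out YT-iKO sham replicate 1 moved the difference of Ccn1 after sham to -2.64 and its adjusted p from edgeR to 0.180. Over all 16 libraries left out in turn, Ccn3's difference after sham ranged from 0.84 to 1.63. Its YT-iKO libraries are among those by which Ccn3 was chosen, so nothing is read from this range. YT-iKO sham replicate 1 and YT-iKO MCAo replicate 1 had Yap1 at 55.7 and 48.6 CPM and Wwtr1 at 74.7 and 83.6 CPM, within the range of the other YT-iKO libraries.

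**Figure D3:**
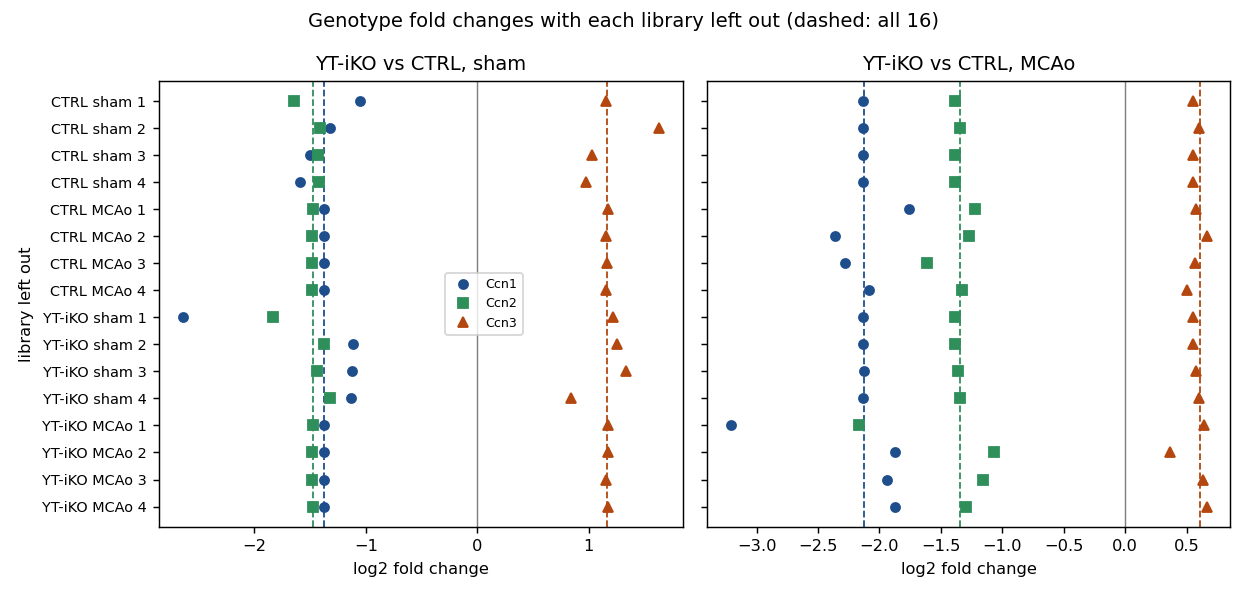
Log2 fold change of YT-iKO against CTRL after sham (left) and after MCAo (right) for Ccn1, Ccn2 and Ccn3 with each named library left out, and with all 16 libraries (dashed lines). Libraries of the groups not compared barely move the points, whereas Ccn1 moves to -2.64 without YT-iKO sham replicate 1 and to -3.21 without YT-iKO MCAo replicate 1.

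Replicate 1 also held the highest levels of the immediate early genes Nr4a1, Fos and Egr1 in all 4 groups. In YT-iKO, Ccn1 of replicate 1 was 6.31-fold above the next library after sham and 4.37-fold above it after MCAo. Nr4a1, an orphan nuclear receptor, measured 133 CPM in YT-iKO sham replicate 1 and 112 CPM in YT-iKO MCAo replicate 1, against 22.1 to 37.5 CPM in the other YT-iKO libraries. Once group means were taken off, a view added after the data were seen, the genes whose log2(CPM + 1) most resembled that of Ccn1 over 16 libraries were Nr4a1 (Pearson r = 0.979, Spearman rho = 0.950), Dusp1 (r = 0.931), Egr1 (r = 0.913), Fos (r = 0.901) and Btg2 (r = 0.898). All are immediate early genes. Of 15 immediate early genes of sufficient level, 14 had r above 0.5 with Ccn1, and the median r was 0.852, against a median of 0.434 over 9131 genes, of which 29.8% had r above 0.5. For Ccn2 the median r with the same list was 0.681, against 0.565 over all genes, and for Ccn3 it was 0.025, against -0.074. Pericyte markers stood closer to Ccn2, with a median r of 0.780 and 5 of 5 above 0.5, as were 64.5% of all genes. In YT-iKO 5 of 6 pericyte markers lay below CTRL after sham (median -0.336) and 6 of 6 after MCAo (median -0.190), with none called by edgeR. Endothelial markers lay below 0 as well, at 8 of 8 after sham (median -0.333) and 7 of 8 after MCAo (median -0.124). Astrocyte markers did so at 5 of 5 after MCAo (median -0.347), with 2 of 5 above 0 after sham (median -0.128). So did 79.2% of genes of at least 10 CPM after sham and 48.1% after MCAo. Above 0 after sham were 5 of 5 smooth muscle (median 0.363), 4 of 4 oligodendrocyte (0.454), 6 of 6 microglia and macrophage (0.312), 4 of 5 neuron (0.644) and 4 of 5 fibroblast markers (0.233). After MCAo 6 of 6 arterial markers were above 0 (median 0.510), and these other lists had medians of 0.026 to 0.222. The part of pericytes in the lower Ccn2 level was not tested. These libraries share depth, dissociation and pooling, and the part of these in the shared deviations was not tested.

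An immediate early gene score, the mean log2(CPM + 1) of 16 such genes without Ccn1, ranged from 5.42 to 7.43 and was highest in replicate 1 of each group. After sham, the libraries of either genotype with the nearest scores were YT-iKO replicate 3 (5.55) and CTRL replicate 3 (5.62), with Ccn1 at 5.31 and 24.5 CPM. After MCAo they were YT-iKO replicate 4 (6.44) and CTRL replicate 4 (6.32), with Ccn1 at 4.74 and 50.6 CPM. Each is a single library, and these last libraries also differed in the female-specific RNA Xist (1431 and 23.8 CPM). At the highest scores after MCAo, in YT-iKO replicate 1 (7.43) and CTRL replicate 1 (7.09), the gap was smaller, with Ccn1 at 26.3 and 81.8 CPM. For genotype, 13 of the 16 genes had values above 0 after sham (median log2 difference 0.357) and 15 after MCAo (median 0.340), against medians of 0.110 and 0.033 over all genes. Of the list 18.8% and 6.25% lay below 0, against 39.9% and 44.5% of all genes. None was called by edgeR, and whether the score itself differed between genotypes was not tested. With this score as a covariate, an alternative chosen after the data were seen, Ccn1 differed between genotypes by -2.18 after sham (SE 0.27, edgeR adjusted p = 7.2e-05) and by -2.93 after MCAo (SE 0.28, edgeR adjusted p = 3.03e-06). Ccn2 then differed by -1.81 (SE 0.32, edgeR adjusted p = 0.00757) and -1.88 (SE 0.33, edgeR adjusted p = 0.00868). In that fit 0.37% of all genes were called lower after sham and 0.257% after MCAo. The score holds Nr4a1, Dusp1, Egr1, Fos and Btg2, the genes seen to be most like Ccn1 within groups. These p-values are therefore no independent test of the genotype difference.

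**Figure D4:**
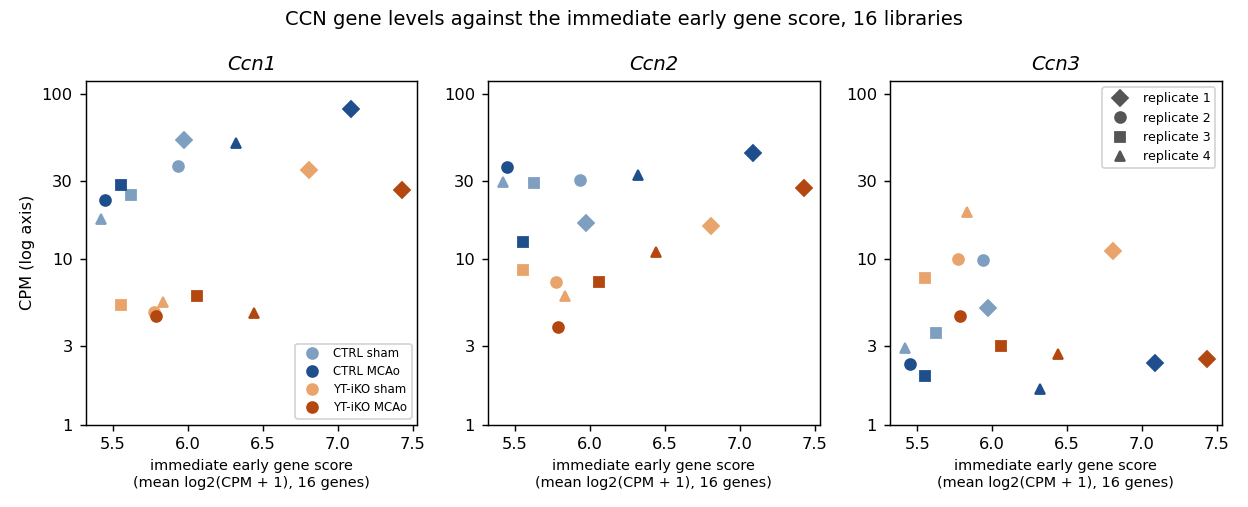
CPM (log axis) of Ccn1, Ccn2 and Ccn3 in each library against its immediate early gene score (mean log2(CPM + 1) of 16 genes), with colours for groups and symbols for replicate numbers. In YT-iKO the 2 libraries with the highest scores hold the highest Ccn1 levels (34.9 and 26.3 CPM). At the nearest scores after MCAo (6.44 in YT-iKO and 6.32 in CTRL, single libraries) Ccn1 is at 4.74 and 50.6 CPM.

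MCAo left Ccn1 and Ccn2 without a detected difference at 72 hours. In CTRL the mean of Ccn1 was 33.0 ± 15.5 CPM after sham and 45.8 ± 26.8 CPM after MCAo (SD, n = 4), a log2 difference of 0.47 with a 95% interval of -0.78 to 1.73 (edgeR adjusted p = 0.9995). Ccn2 was at 26.4 ± 6.54 and 31.4 ± 13.4 CPM, a log2 difference of 0.25 with an interval of -0.64 to 1.15 (edgeR adjusted p = 0.9995). In YT-iKO the differences were -0.28 for Ccn1 (interval -1.56 to 1.00) and 0.39 for Ccn2 (interval -0.53 to 1.3), each with an edgeR adjusted p of 0.9999. Each interval holds 0 and is wide, so that no difference was detectable at this spread and levels are not shown to be alike. Without YT-iKO sham replicate 1 the MCAo difference of Ccn1 in YT-iKO was 0.97, and without YT-iKO MCAo replicate 1 that of Ccn2 was -0.43.

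Ccn3 was lower on average after MCAo in CTRL. There all 4 MCAo libraries (1.64 to 2.35 CPM) lay below all 4 sham libraries (2.92 to 9.86 CPM). The mean was 5.37 ± 3.13 CPM after sham and 2.07 ± 0.341 CPM after MCAo (SD, n = 4), a log2 difference of -1.38 (SE 0.37, 95% interval -2.13 to -0.62, edgeR unadjusted p = 0.00108, adjusted p = 0.240), with an exact two-sided permutation p of 0.0286. edgeR therefore called 0 of the 3 genes for MCAo in CTRL, where it called 0.216% of all genes, with 1 of the 3 at an unadjusted p under 0.05, as were 3.5% of all genes. DESeq2 called Ccn3 there (log2 difference -1.36, adjusted p = 0.0440), as it did 0.273% of genes in the lower direction. Non-overlap in this direction was seen for 1.9% of genes. Without CTRL sham replicate 2, the highest CTRL library, the difference was -0.91. The lowest Ccn3 level rested on 26 counts (95% Poisson interval 17.0 to 38.1, counting error only). With the even background taken off, an alternative chosen after the data were seen, the difference in CTRL was -1.78.

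In YT-iKO, the comparison by which Ccn3 was chosen, it measured 12.1 ± 5.04 CPM after sham and 3.17 ± 0.916 CPM after MCAo (SD, n = 4). The log2 difference was -1.93 (SE 0.36), a 3.81-fold lower level, and the lowest sham library (7.71 CPM) lay above the highest MCAo library (4.51 CPM). In this comparison edgeR called 0.318% of genes, 0.0418% lower, and non-overlap downward was seen for 0.499%. Nothing is read from these values, since they chose the gene. The response in YT-iKO minus that in CTRL was -0.55 for Ccn3 (SE 0.50, no test), -0.76 for Ccn1 (95% interval -2.55 to 1.03, edgeR adjusted p = 0.9999) and 0.13 for Ccn2 (interval -1.14 to 1.41, edgeR adjusted p = 0.9999). For this difference of responses edgeR and DESeq2 called 0% of all genes, with 0.373% at an unadjusted p under 0.05 in edgeR. By mean level the groups ranked YT-iKO sham, CTRL sham, YT-iKO MCAo and CTRL MCAo for Ccn3, and CTRL sham overlapped with its neighbours on either side.

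**Figure D5:**
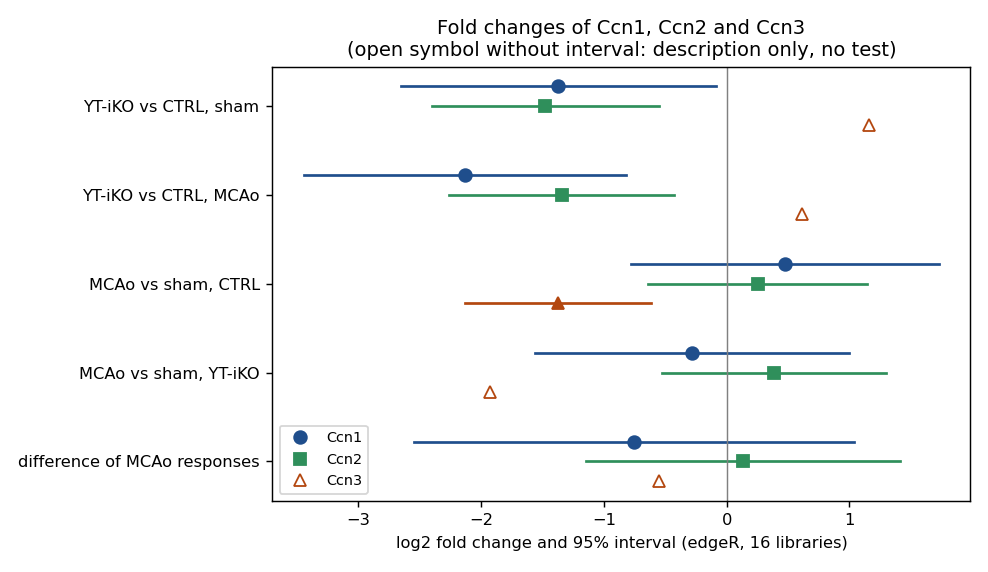
Log2 fold changes with 95% intervals from the edgeR model of 16 libraries for Ccn1 (circles), Ccn2 (squares) and Ccn3 (triangles) in 4 comparisons and in the difference between the MCAo responses, with open triangles and no interval where Ccn3 is a description without a test. Ccn1 and Ccn2 lie below 0 for genotype, while for MCAo in CTRL the interval of Ccn3 stays below 0 and those of Ccn1 and Ccn2 hold 0.

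Of 4 venous markers, edgeR called Vwf and Ackr1 for MCAo, the comparison in which Ccn3 was lower. Of all genes, edgeR called 0.216% for MCAo in CTRL and 0.318% in YT-iKO. Vwf, the von Willebrand factor, rose by 1.98 on the log2 scale in CTRL (SE 0.38, edgeR adjusted p = 0.0281) and 2.35 in YT-iKO (SE 0.38, edgeR adjusted p = 0.00526). Ackr1, a chemokine receptor of venules, rose by 3.80 (SE 0.55, edgeR adjusted p = 0.00166) and 3.77 (SE 0.54, edgeR adjusted p = 0.00161). Nr2f2 and Slc38a5 were not called for MCAo, and Slc38a5 was called for genotype after sham (-1.60, edgeR adjusted p = 0.0537), as were 0.0965% of all genes. The 4 markers summed to 752 to 1538 CPM in sham libraries and 2027 to 7336 CPM in MCAo libraries, most of it Vwf (means of 1207 CPM in CTRL sham and 4776 CPM in CTRL MCAo). Of 6 pericyte markers none was called, and all 6 in CTRL and 5 in YT-iKO had values above 0 for MCAo (medians 0.470 and 0.696). They summed to 265 to 402 CPM in CTRL sham, 267 to 732 CPM in CTRL MCAo, 156 to 344 CPM in YT-iKO sham and 237 to 597 CPM in YT-iKO MCAo. Over 16 libraries the median r with Ccn3 was -0.684 for the venous and -0.651 for the pericyte markers, against -0.060 over all genes, in libraries that include those on which Ccn3 was chosen. With group means taken off it was -0.264 and -0.382, against -0.074. Arterial markers summed to 356 to 421 CPM in CTRL sham and 216 to 453 CPM in CTRL MCAo, and to 282 to 494 CPM in YT-iKO sham and 345 to 778 CPM in YT-iKO MCAo, so that the sums overlapped in both genotypes. Of the 6 arterial markers edgeR called Gja4, a gap junction protein, for MCAo in YT-iKO (log2 difference 2.32, SE 0.42, edgeR adjusted p = 0.0159), at 7.78 to 12.1 CPM after sham and 15.7 to 105.2 CPM after MCAo. The median of the 6 was 0.619 there and 0.510 for genotype after MCAo, with 5 and 6 of them above 0. The fibroblast markers summed to 16.9 to 19.1 CPM in CTRL sham and 26.1 to 31.5 CPM in CTRL MCAo, and overlapped in YT-iKO at 17.0 to 34.8 CPM after sham and 26.1 to 34.0 CPM after MCAo. Of the marker genes listed, Lum alone, a fibroblast marker, was at 0 in 1 library. The part of these cell types in the lower Ccn3 level was not tested. Pools also differed in sex, judged by the female-specific RNA Xist: CTRL sham replicates 1 and 2 had Xist at 2.43 and 2.28 CPM and Ccn3 at 5.11 and 9.86 CPM, whereas replicates 3 and 4 had Xist at 993 and 754 CPM and Ccn3 at 3.58 and 2.92 CPM. In YT-iKO sham, replicates 2 and 4 with Xist at 1.46 and 4.02 CPM had Ccn3 at 10 and 19.3 CPM, and replicates 1 and 3 with Xist at 1031 and 511 CPM had it at 11.3 and 7.71 CPM. In CTRL MCAo, replicate 3 had Xist at 574 CPM and Ccn3 at 1.97 CPM, and replicates 1, 2 and 4 had Xist at 1.59, 2.34 and 23.8 CPM and Ccn3 at 2.35, 2.34 and 1.64 CPM. In YT-iKO MCAo, replicates 3 and 4 had Xist at 643 and 1431 CPM and Ccn3 at 2.98 and 2.68 CPM, and replicates 1 and 2 had Xist at 0.752 and 4.32 CPM and Ccn3 at 2.51 and 4.51 CPM. High Xist was thus found in 2 of 4 libraries in each group but CTRL MCAo, where it was 1 of 4. With group means taken off, the genes most like Ccn3 were Gm25911 (r = 0.690), Apba1 (r = 0.638), Tiam2 (r = 0.638) and the Y chromosome genes Ddx3y (r = 0.555, rho = 0.411) and Eif2s3y (r = 0.551, rho = 0.308). These libraries include those on which Ccn3 was chosen, and the part of sex in the Ccn3 values was not tested.

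Over the 16 libraries, Ccn1 and Ccn2 varied together (r = 0.828, rho = 0.741), and less closely once group means were taken off (r = 0.611, rho = 0.379). For Ccn3, r was -0.336 with Ccn1 and -0.461 with Ccn2, and 0.053 and -0.248 with group means taken off. The genes most like Ccn1 over all 16 libraries were Zfp651 (r = 0.863), Pcx (r = 0.853), Slc16a1 (r = 0.851), Ndnf (r = 0.840) and Slc7a1 (r = 0.834). Those most like Ccn2 were Tax1bp3 (r = 0.916), Gatm (r = 0.905), Zfp651 (r = 0.896), Ism1 (r = 0.893) and Man2b2 (r = 0.893). For Ccn3 they were Tiam2 (r = 0.832), Apba1 (r = 0.792), Slc26a10 (r = 0.751), Rtn4ip1 (r = 0.736) and Nckap5 (r = 0.732). These values describe genes measured in the same 16 libraries, which fall into groups and differ in depth.

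Receptors and co-receptors of CCN proteins were present at the RNA level, with none of 16 called by edgeR in any of the comparisons. The most abundant were the heparan sulfate proteoglycan perlecan (Hspg2, 1415 CPM in CTRL sham), the laminin receptor subunit Itga6 (980 CPM), the Ccn3 partner Notch1 (882 CPM) and the integrin subunit Itgb1 (429 CPM). Their median log2 difference was -0.047 for genotype after sham and 0.035 after MCAo, against 0.110 and 0.033 over all genes and -0.128 and 0.007 over genes of at least 10 CPM. For MCAo it was 0.345 in CTRL and 0.199 in YT-iKO, against 0.068 and -0.016 over all genes and -0.088 and 0.049 over those of at least 10 CPM. At an unadjusted p under 0.05, 4 receptors passed for MCAo in CTRL and 3 in YT-iKO, where 3.5% and 3.01% of all genes did, and 1 passed for genotype in each setting, where 2.16% and 1.49% did. DESeq2 called Itga5 and Itga2b for MCAo in CTRL and Itgb3 and Itga5 in YT-iKO, all higher, of 15 receptors it tested in each. There it called 1.29% and 1.73% of the genes it tested. Itga5, a fibronectin receptor subunit, measured 55.5 to 68.0 CPM in CTRL sham and 68.9 to 176.0 CPM in CTRL MCAo. Itgb3, the partner of the alpha-v subunit in a receptor of Ccn1, measured 11.6 to 17.8 CPM in YT-iKO sham and 15.2 to 45.2 CPM in YT-iKO MCAo.

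Among 9 growth factors that CCN proteins bind or modulate, edgeR called none in any comparison, and the most at an unadjusted p under 0.05 was 2, for MCAo in CTRL, where 3.5% of all genes passed. DESeq2 called 1 of 9, Bmp4, a bone morphogenetic protein, for MCAo in CTRL and for genotype after MCAo. There it called 1.29% and 0.534% of the genes it tested. Bmp4 measured 1.94 to 3.57 CPM in CTRL sham, 4.48 to 8.77 CPM in CTRL MCAo and 1.87 to 3.66 CPM in YT-iKO MCAo. The 4 TEAD genes, through which YAP/TAZ act on DNA, had none called by edgeR or DESeq2, with 1 at an unadjusted p under 0.05 for MCAo in each genotype (3.5% and 3.01% of all genes).

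Of 21 other YAP/TAZ targets in general use, edgeR called Amotl2 alone for genotype, where it called 0.0965% of all genes after sham and 0.0708% after MCAo. Amotl2, an angiomotin that restrains YAP, fell in YT-iKO, with log2 differences of -2.02 after sham (SE 0.24, edgeR adjusted p = 0.000273) and -1.95 after MCAo (SE 0.24, edgeR adjusted p = 0.000749), and its groups were far apart at 211 to 250 CPM in CTRL sham and 49.1 to 66.1 CPM in YT-iKO sham. The median of the list was -0.164 after sham and -0.083 after MCAo, against 0.110 and 0.033 over all genes and -0.128 and 0.007 over genes of at least 10 CPM. At an unadjusted p under 0.05, 5 of the 21 passed after sham and 1 after MCAo, where 2.16% and 1.49% of all genes did. DESeq2 also called Ajuba, a LIM protein of the Hippo pathway, after sham (6.24 to 8.17 CPM in CTRL and 2.57 to 4.48 CPM in YT-iKO), as it did 0.547% of genes. For MCAo edgeR called none of the list. At an unadjusted p under 0.05 in edgeR stood 6 genes in CTRL and 7 in YT-iKO, as did 3.5% and 3.01% of all genes. DESeq2 called Axl, Tgfb2 and Myof of 18 tested in YT-iKO (1.73% of the genes it tested). Ankrd1, a nuclear ankyrin repeat protein often read as a YAP target, had a mean of 1.71 CPM in CTRL sham and 1.87 CPM in YT-iKO sham.

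Of 15 other matricellular genes, edgeR called Tnc (tenascin C) for MCAo in CTRL, where it rose by 1.57 on the log2 scale (SE 0.32, edgeR adjusted p = 0.0464) from 1.94 to 2.91 CPM after sham to 4.97 to 11.7 CPM after MCAo. In YT-iKO edgeR called Spp1 (osteopontin), which rose by 2.93 (SE 0.68, edgeR adjusted p = 0.0946), though its groups overlapped at 0.618 to 1.75 CPM after sham and 1.63 to 20.96 CPM after MCAo. For MCAo edgeR called 0.216% of all genes in CTRL and 0.318% in YT-iKO. DESeq2 called Tnc in both genotypes and Spp1 in YT-iKO, as it did 1.29% of genes in CTRL and 1.73% in YT-iKO. Tnc measured 3.03 to 6.61 CPM in YT-iKO sham and 6.83 to 10.7 CPM in YT-iKO MCAo, without overlap (edgeR log2 difference 1.13, adjusted p = 0.267). Non-overlap upward for MCAo in YT-iKO was seen for 0.785% of genes. The difference between the genotypes in this response was not called by edgeR. The list had a median log2 difference of 0.474 for MCAo in CTRL and 0.469 in YT-iKO, against 0.068 and -0.016 over all genes. For genotype edgeR called 0 of 15, with 1 at an unadjusted p under 0.05 in each setting (2.16% and 1.49% of all genes). DESeq2 called Fbln2, a fibulin of basement membranes, in both settings (70.1 to 97.6 CPM in CTRL sham and 39.8 to 58.8 CPM in YT-iKO sham), as it did 0.547% of genes after sham and 0.534% after MCAo. Of the 16 immediate early genes edgeR called Ier3 alone, which rose in YT-iKO after MCAo by 1.46 (SE 0.33, edgeR adjusted p = 0.0832), where 0.318% of all genes were called. DESeq2 called Junb and Ier3 there (1.73% of the genes it tested) and Fosb, Junb and Ier3 for MCAo in CTRL (1.29%).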

How the data were processed

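RNA of sorted brain endothelial cells was prepared with the SMART-Seq Ultra Low Input kit, and paired-end reads were mapped by the authors to GRCm38 with a GENCODE annotation, using STAR 2.7.8a. The deposited values are raw counts per gene, 1 column for each of 16 libraries; the counting program, its treatment of strand and any filter are not given in the sources used here. The kit is not described as using molecular identifiers. From the counts, edgeR 4.0.16 (R 4.3.3) gave TMM factors and CPM, and its quasi-likelihood test was fitted to all 4 groups in 1 model. The function filterByExpr (minimum count 10, minimum total 15) left 31085 genes, over which p-values were adjusted by the Benjamini-Hochberg method, with a call at an adjusted p under 0.1. The study used DESeq2, here an alternative (version 1.42.0). Single values were tested on the log2(CPM + 1) scale by an exact permutation test, two-sided, over 70 assignments, smallest p 0.0286, in 9 tests without adjustment. Ccn3 was tested for MCAo in CTRL alone, the comparison with no YT-iKO library in either group. In the model of all 4 groups its edgeR p-value still drew its spread from YT-iKO libraries too. The exact permutation test and the fit of only the groups compared used CTRL libraries alone. Replicates are pools of mice; which sexes each pool held is not given.

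Of 37003 gene identifiers, 36861 were found in GENCODE M21, whose exons gave lengths and positions. The even background was the CPM per kb of exon over 1466 autosomal olfactory, vomeronasal and taste receptor genes. Genes named were the CCN family, Yap1 and Wwtr1, the 5 genes most correlated with each member among those with a mean of at least 10 CPM, genes of fixed lists called in a comparison, and up to 4 per list by level; those called by DESeq2 alone were added after their values were seen, as were Nr4a1, Fos, Egr1 and Xist. The members and lists were chosen with earlier results of these data known. Alternatives were DESeq2, RLE factors, TMM factors from genes of at least 10 CPM, no filter, only the groups compared, a replicate block, each library left out in turn and, chosen after seeing the data, the immediate early gene score as a covariate and the even background taken off. The fitting was tested on simulated data. No libraries held identical counts, and p-values measure the spread between pools.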

Additional observations from a re-analysis of the deposited data

Results flagged for a closer look

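In groups of 4, a single library was checked for standing apart on the log2(CPM + 1) scale. The gap to its nearest neighbour, as a share of the range of the group, was set against Dixon's 95% critical value. Gaps and ranges below are on that scale, with the levels in CPM in brackets. Of 12 groups of values for the 3 genes, 3 were past it, whereas chance gives about 1 in 20. Ccn1 in YT-iKO sham replicate 1 had a gap of 0.937 of the range (34.9 CPM against 4.83 to 5.53 CPM). Ccn1 in YT-iKO MCAo replicate 1 had a gap of 0.849 (26.3 CPM against 4.51 to 6.02 CPM). Ccn2 in CTRL sham replicate 1 stood apart on the low side, with a gap of 0.920 (16.6 CPM against 29.0 to 30.4 CPM). The same CTRL library held the highest Ccn1 level of its group, at 52.9 CPM.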

How the results depend on the processing

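Of 251 fold changes of Ccn1, Ccn2 and Ccn3 that were tested again under the alternatives, 227 kept their direction and their side of the threshold, 12 changed call and 12 changed sign; the causes were not tested. A further 103 had no test (Ccn3 where its own choice bars one, and all with the even background taken off), and all 103 kept their sign. For Ccn3 in comparisons with YT-iKO libraries the choice of the gene favoured this, so nothing is read from it. Calls gained by edgeR were Ccn2 after sham when only the groups compared were fitted (-1.44, adjusted p = 0.00744) and Ccn3 for MCAo in CTRL in the same way (-1.35, adjusted p = 0.0450); DESeq2 gained the latter (-1.36, adjusted p = 0.0440). With the immediate early gene score as a covariate, Ccn1 was called for genotype after sham (-2.18) and MCAo (-2.93) and Ccn2 likewise (-1.81 and -1.88). The covariate was added after the data were seen and holds genes that varied with Ccn1, so these calls are no independent test. In that fit the MCAo difference turned to -0.17 for Ccn1 and -0.12 for Ccn2 in CTRL and to -0.18 for Ccn2 in YT-iKO. The difference of responses of Ccn2 turned to -0.065. TMM factors from abundant genes turned the latter to -0.050.

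Deviations of same-numbered libraries correlated above 0.1 in 19 of 24 pairs (median 0.25; -0.13 over 72 pairs of different number). The labels name no shared source for a number, and replicate numbers were not read as pairs, since this was to require every pair above 0.1. A replicate block called Ccn1 for genotype after sham (-1.87, adjusted p = 0.0108) and after MCAo (-2.44, adjusted p = 0.000921) and changed no other call of the 3 genes.

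With each library left out, Ccn1's genotype difference ranged from -2.64 to -1.05 after sham and -3.21 to -1.76 after MCAo, and that of Ccn2 from -1.84 to -1.32 and -2.17 to -1.06. The MCAo difference in CTRL ranged from -1.56 to -0.91 for Ccn3, called once (without YT-iKO MCAo replicate 4, adjusted p = 0.0970), and Ccn3's genotype difference after MCAo from 0.36 to 0.66. In YT-iKO it ranged from -1.37 to 0.97 for Ccn1 and -0.43 to 0.71 for Ccn2. The difference of responses ranged from -1.83 to 0.51 for Ccn1, -0.69 to 0.45 for Ccn2 and -1.03 to -0.24 for Ccn3. Ccn2's was negative without CTRL MCAo replicate 3 (-0.13), YT-iKO MCAo replicate 1 (-0.69), YT-iKO sham replicate 2 (-0.01) and YT-iKO sham replicate 4 (-0.03).

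Over all genes, edgeR called 30 for genotype after sham, 22 after MCAo, 67 for MCAo in CTRL and 99 in YT-iKO. DESeq2 called 81, 92, 222 and 267, and TMM factors from abundant genes 115, 181, 554 and 534. That scaling moved the median of all genes by 0.191 after sham, 0.143 for MCAo in CTRL and -0.139 for the difference of responses, and the share of higher calls from 4.5% to 22.1% for genotype after MCAo and from 86.9% to 71.5% for MCAo in YT-iKO. Fitting only the groups compared gave 126 after sham, 623 for MCAo in CTRL and 17 in YT-iKO; the block gave 34 after MCAo and 119 for MCAo in CTRL; the score as a covariate gave 119, 83 and 130 in the first 3 comparisons. Leaving out a library gave 12 to 43, 11 to 47, 26 to 162 and 37 to 203. Depth limits Ccn3 most, at 26 counts in the lowest library.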
